A study of Arabidopsis thaliana with 18 samples.

Results

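The response of the crf6 mutant of Arabidopsis thaliana to hydrogen peroxide (H2O2) was measured on 4 of the 18 arrays of the series. These were the 2 arrays whose titles give crf6 mutant with H2O2, set against the 2 whose titles give crf6 mutant untreated. The series holds 9 groups of 2 arrays: the crf6 mutant, a line named CRF6oe and the wild type Col-0 (WT), each with H2O2, with the cytokinin benzyl adenine (BA), or untreated. Its stated purpose was to find target genes of CRF6. Seedlings of 10 days were floated for 1 h on 3 mM MES buffer, then H2O2 was added to 20 mM or BA to 2 µM, and treated samples are labelled with 6 h. All solutions, those of the controls included, carried 0.2% DMSO. The labels record no treatment time for the untreated samples. They do not say what kind of allele crf6 is, what drives CRF6 in CRF6oe, how many lines were used, or how many seedlings made up a sample.

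CRF6 (CYTOKININ RESPONSE FACTOR 6, AT3G61630) belongs to the AP2/ERF family of plant transcription factors and is induced by cytokinin and by oxidative stress. H2O2 is a reactive oxygen species that damages proteins and lipids, and at lower doses acts as a signal. Small heat shock proteins hold unfolding proteins in solution, glutathione S-transferases and UDP-glycosyltransferases conjugate reactive compounds, and class III peroxidases are secreted enzymes that use or make H2O2 in the cell wall. No named feature was paired with CRF6, so the mutant label was not checked on the gene itself.

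Levels were the deposited values per array on the log2 scale, and changes are H2O2 minus untreated, in log2 units with their standard errors (SE). Genes were 16548, each represented by the brightest feature paired with that gene alone. Differences were tested with limma in a fit of all 18 arrays, and a gene was called where the Benjamini-Hochberg adjusted p was under 0.05. Nothing in the labels says that replicates came from separate cultures, so the p-values speak of the spread between these arrays, and that spread may be technical. The arrays with H2O2 correlated with each other over genes at r = 0.986, the untreated arrays at r = 0.989, and arrays of the 2 groups with each other at r = 0.975 to 0.979. The sources give most loci here by code only, and the family named beside a locus code is background from the general annotation of the Arabidopsis genome.

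In the crf6 mutant, 143 genes rose with H2O2 and 180 fell, 323 of 16548 genes or 1.95% (0.864% higher and 1.09% lower). The largest rise was that of the small heat shock protein AT2G29500. Among the 15 largest falls were 5 receptor kinases of subfamily I, the phosphatase AT4G32950, the RING-type ubiquitin ligase AT2G20030 and the peroxidase AT2G37130. The rises had a median of 1.57 (range 0.71 to 4.32) and the falls a median of -1.39 (range -4.23 to -0.68), and 280 of the 323 genes changed at least 2-fold. The median level of the rising genes was 7.01 with H2O2, against 5.17 in untreated mutants, and that of the falling genes was 4.28 with H2O2, against 5.94 untreated. For each of the 323 genes the arrays of both groups lay apart, as they did for 41.4% of all genes tested (21.1% higher and 20.3% lower with H2O2). Limma gave an unadjusted p under 0.05 for 1563 of all 16548 genes, the background for the counts at that threshold in the lists below. The number of calls was 139 without H2O2 replicate 1, 161 without H2O2 replicate 2, 150 without untreated replicate 1 and 97 without untreated replicate 2 of crf6. The calls that held without each of these 4 arrays in turn were 74, of which 37 were rises and 37 falls. With unnamed features tested too, 203 genes were called.

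**Figure D1:**
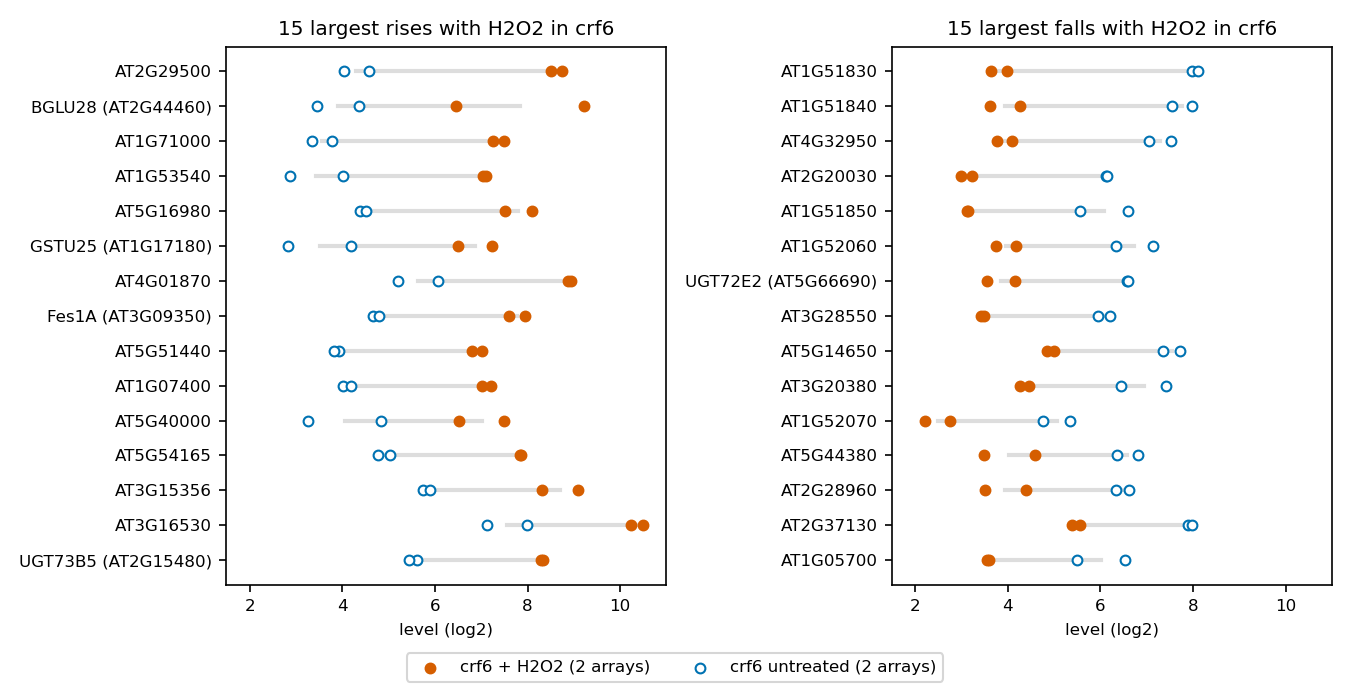
Levels (log2, x axis) of the 15 genes with the largest rises and the 15 with the largest falls with H2O2 in crf6, 1 gene per line. Filled points are the 2 H2O2 arrays, open points the 2 untreated arrays, and grey lines join the group means. In every line the 2 groups are apart; BGLU28 has the widest gap between its H2O2 arrays, at 6.45 and 9.23.

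Small heat shock proteins formed the strongest rise. AT2G29500, a cytosolic class I member, stood at 8.73 and 8.51 with H2O2, against 4.03 and 4.57 untreated. Both H2O2 arrays lay far above both untreated ones, a change of 4.32 ± 0.29 or 20.0-fold with an adjusted p of 1.89e-06 by limma. AT1G53540, also of class I, had 7.03 and 7.11 with H2O2, against 4.01 and 2.87 untreated (change 3.63 ± 0.35). Its untreated arrays differed more from each other than its H2O2 arrays did. AT1G07400 reached 7.03 and 7.22 with H2O2, against 4.01 and 4.20 untreated, a rise of 3.02 ± 0.24. AT5G51440, which acts in mitochondria, stood at 7.02 and 6.80 with H2O2, against 3.94 and 3.81 untreated, a rise of 3.04 ± 0.25. These 4 genes kept their calls without each array in turn. Of the 10 measured small heat shock proteins, 7 rose, 0 fell, and all 10 changes were positive, with a median of 1.55 (over all genes tested the median was 0.01). The other rises, AT1G54050 (1.66 ± 0.30), AT1G59860 (1.44 ± 0.22) and AT1G52560 (1.23 ± 0.28), were named after their values were seen, and their calls were lost without single arrays (adjusted p up to 0.306). Without untreated replicate 2 of crf6, 4 of the 10 were called. The 3 that were not called were AT5G37670, a peroxisomal member (0.37 ± 0.38), ATHSP22.0 (0.52 ± 0.26) and AT4G21870 (0.50 ± 0.37).

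Helpers of the larger chaperones rose beside them. AT1G71000, a DnaJ-domain protein of the kind that delivers clients to HSP70, had 7.49 and 7.24 with H2O2, against 3.77 and 3.35 untreated. Its groups were well apart, with a change of 3.80 ± 0.24 (adjusted p = 1e-06, limma). Fes1A, which protects cytosolic HSP70 from degradation, had 7.96 and 7.61 with H2O2, against 4.66 and 4.79 untreated (change 3.06 ± 0.23). Hop3, which bridges HSP70 and HSP90, had 6.19 and 5.94 with H2O2, against 4.02 and 3.50 untreated (change 2.31 ± 0.29). Each of these 3 kept its call without each array. AT5G48570 (ROF2), a peptidyl-prolyl isomerase, had 7.52 and 7.63 with H2O2, against 5.73 and 5.34 untreated, a rise of 2.04 ± 0.35 that was lost without H2O2 replicate 2 and without untreated replicate 2 (adjusted p up to 0.0889). In all, 6 of 10 measured co-chaperones and heat-induced helpers rose and 0 fell (median 1.31), and 3 were called without untreated replicate 2. The other Hop genes were not called, Hop1 at 0.12 ± 0.21 and Hop2 at 0.44 ± 0.21. Of 24 listed HSP70, HSP90 and HSP100 chaperones only 3 were measured. Limma called 0 of these 3, and 1 had an unadjusted p under 0.05. This was AT3G09440, a cytosolic HSP70 named after its value was seen, at 9.60 and 9.63 with H2O2, against 8.44 and 8.53 untreated (1.12 ± 0.29, adjusted p = 0.0700). For the unfolded protein response of the endoplasmic reticulum (ER) 4 of 14 listed genes were measured. Limma also called 0 of these 4 genes, 1 with an unadjusted p under 0.05, and the median was 0.05. BZIP60, a transcription factor of that response, stood at 0.89 ± 0.31, and the calreticulin CRT1b at -0.16 ± 0.21.

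**Figure D2:**
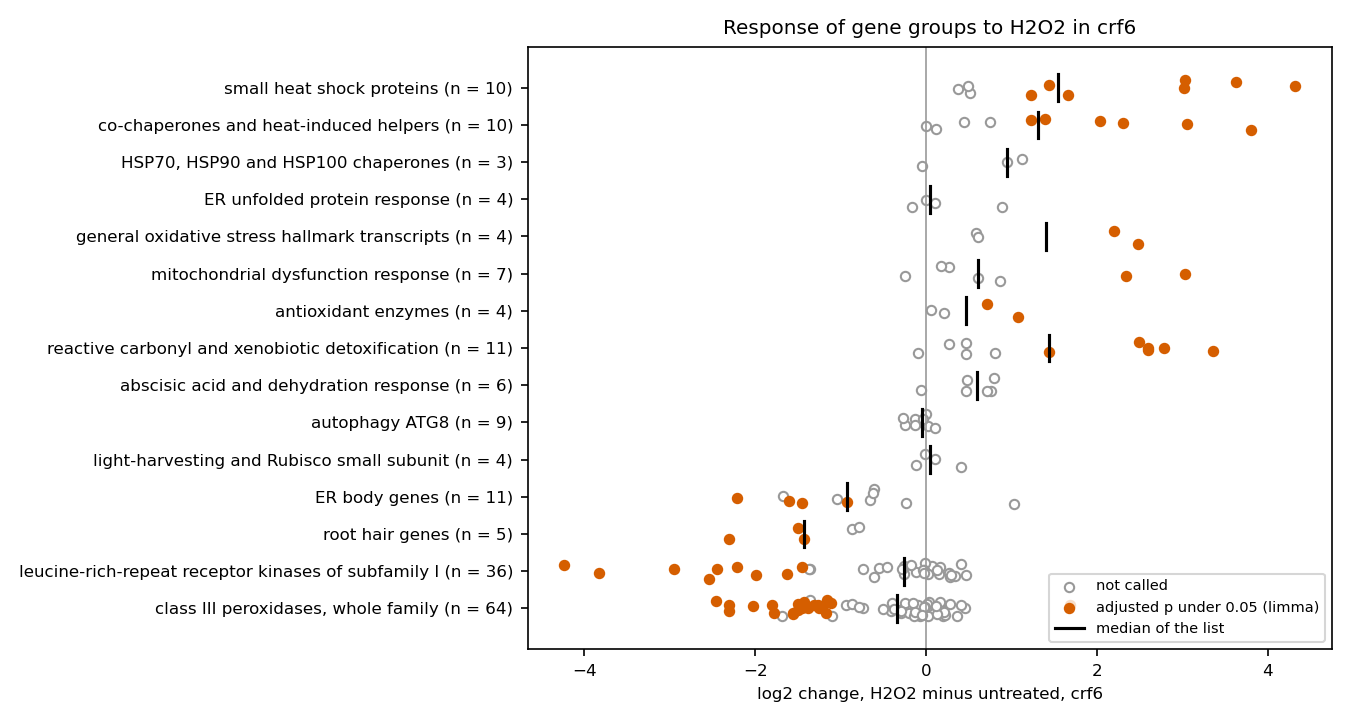
Log2 change with H2O2 in crf6 (x axis) of each measured gene of 15 lists, 1 list per line with its number of genes. Filled points passed an adjusted p of 0.05 (limma), open points did not, and black bars mark the median of the list. The small heat shock, co-chaperone, oxidative stress hallmark and detoxification lists have medians above 1, and the root hair list has a median of -1.43.

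Enzymes that conjugate or reduce reactive compounds made up the second large group of rises. GSTU25, a glutathione S-transferase of the tau class, stood at 6.51 and 7.23 with H2O2, against 4.20 and 2.82 untreated, which was 10.2-fold higher (3.36 ± 0.48, adjusted p = 0.0014 by limma). Its groups did not overlap, although the untreated arrays differed by more than the H2O2 arrays did. AT5G16980, related to the alkenal reductase AER, had 8.09 and 7.52 with H2O2, against 4.39 and 4.51 untreated (3.36 ± 0.60). Its call was lost without H2O2 replicate 1 and without either untreated replicate (adjusted p up to 0.0994). AER itself, which reduces reactive alkenals, was not called at 0.81 ± 0.41. The glycosyltransferases UGT73B5, UGT73B4, UGT73B2 and UGT73B3, of 1 subfamily known to respond to stress and pathogens, all rose. UGT73B5 had 8.33 and 8.30 with H2O2, against 5.62 and 5.45 untreated (2.78 ± 0.34). UGT73B4 had 7.78 and 7.86 with H2O2, against 5.38 and 5.06 untreated (2.60 ± 0.34). UGT73B2 had 6.84 and 6.71 with H2O2, against 3.99 and 4.57 untreated (2.50 ± 0.30). These 3 kept their calls without each array, while that of UGT73B3 (1.44 ± 0.32), named after its value was seen, was lost without any 1 of the 4 (adjusted p up to 0.300). The UGT73B genes are close relatives, and how far their features share signal is not known here.

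In the whole detoxification list 6 of 11 genes rose and 0 fell (median 1.44), and 3 were called without H2O2 replicate 1 and without either untreated replicate. Among 48 UDP-glycosyltransferases found by their description 5 rose and 1 fell (median 0.06), a list that misses UGT72E2, which fell, and 3 were called without untreated replicate 1. It also misses the glycosyltransferase AT1G05675 of the detoxification list, which rose. AT1G05675 had 4.87 and 4.57 with H2O2, against 2.11 and 2.12 untreated (2.60 ± 0.53), and lost its call without any 1 of the 4 arrays. UGT87A2, a glycosyltransferase known for a role in flowering time, was the fifth rise among the 48, at 10.18 and 10.15 with H2O2, against 8.06 and 8.77 untreated (1.75 ± 0.29). Its call was lost without untreated replicate 1 (adjusted p = 0.0774). Of 13 glutathione S-transferases GSTU25 was the 1 called, and the median of the list was -0.08. Of the uncalled members, GSTU16 stood at 0.56 ± 0.23, GSTF3 at 0.52 ± 0.43 and GSTU26 at -0.63 ± 0.49. Of 262 cytochrome P450 genes found by description 30 were measured, and limma called 0 of these 30. An unadjusted p under 0.05 was given for 3 of the 30, near the background of 1563 of all 16548 genes.

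Some transporters and lignin-related genes were called too, and of these UGT72E2 and AT5G52450 were named by rule and the others after their values were seen. The MATE transporters, which export toxins and metabolites from the cytosol, included AT3G23550, at 7.85 and 7.59 with H2O2, against 4.69 and 5.63 untreated (2.56 ± 0.52). AT5G52050 stood at 5.02 and 4.84 with H2O2, against 2.88 and 2.59 untreated (2.19 ± 0.45). AT5G52450 stood at 6.66 and 6.62 with H2O2, against 5.20 and 5.61 untreated (1.23 ± 0.17). Of these, AT5G52450 kept its call without each array and the other 2 did not (adjusted p up to 0.222). CCR2, a cinnamoyl-CoA reductase of the lignin pathway, had 7.20 and 7.43 with H2O2, against 5.03 and 5.32 untreated, a rise of 2.14 ± 0.24 that held without each array. UGT72E2, which glucosylates the alcohols from which lignin is made, moved the other way, with 3.54 and 4.15 with H2O2, against 6.58 and 6.60 untreated, a fall of 2.75 on the log2 scale (SE 0.34).

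Hallmarks of oxidative stress and of mitochondrial dysfunction rose in part. AT1G19020, a transcript induced by many reactive oxygen treatments, had 6.97 and 6.73 with H2O2, against 4.66 and 4.63 untreated (2.20 ± 0.38, adjusted p = 0.00589, limma). AT1G57630, a TIR-domain protein, had 8.66 and 8.26 with H2O2, against 5.44 and 6.52 untreated (2.48 ± 0.53). Both groups were apart in each gene. These were 2 of 4 measured hallmark genes, with AT2G21640 at 0.61 ± 0.25 and AT1G05340 at 0.59 ± 0.39 not called. The count was 0 without H2O2 replicate 1 and 1 without each of the other 3 arrays. Of 7 mitochondrial dysfunction genes 2 rose, AT5G51440 (above) and AT2G41730, which stood at 5.73 and 6.39 with H2O2, against 4.06 and 3.37 untreated (2.34 ± 0.46). AT2G41730 lost its call without H2O2 replicate 2 and without untreated replicate 2 (adjusted p up to 0.182). NDB2, an alternative NADH dehydrogenase of mitochondria, had 6.73 and 6.64 with H2O2, against 5.93 and 5.70 untreated, and was not called (0.87 ± 0.23, adjusted p = 0.0857). Of the 26 listed antioxidant enzymes 4 were measured. GR1, a glutathione reductase, had 9.47 and 9.23 with H2O2, against 8.71 and 8.57 untreated (0.71 ± 0.17), and ATMDAR2, a monodehydroascorbate reductase, had 9.79 and 9.70 with H2O2, against 8.53 and 8.81 untreated (1.08 ± 0.21). These 2 of 4 measured genes were called, and 0 were called without any 1 of the 4 arrays, while GR, the organellar glutathione reductase (0.22 ± 0.18), and the sulfiredoxin SRX (0.06 ± 0.23) were not.

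BGLU28, a beta-glucosidase known as a marker of sulfur deficiency, had the widest gap between its H2O2 arrays among the 15 largest rises. It stood at 6.45 and 9.23 with H2O2, against 4.36 and 3.46 untreated. The gap between its H2O2 arrays was larger than that between the lower of them and the higher untreated array, and the rise of 3.93 ± 0.67 (adjusted p = 0.00547, limma) was lost without untreated replicate 2 (adjusted p = 0.0910). Other large rises whose loci belong to no list were AT4G01870, AT5G40000, AT5G54165, AT3G15356 and AT3G16530. AT3G16530 and AT3G15356 are legume-type lectins. AT3G16530 stood at 10.50 and 10.22 with H2O2, against 7.12 and 7.99 untreated (2.81 ± 0.50), and AT3G15356 at 9.08 and 8.31 with H2O2, against 5.74 and 5.89 untreated (2.88 ± 0.56). Calls of both were lost without H2O2 replicate 1 and without untreated replicate 1 (adjusted p up to 0.159). AT4G01870 reached 8.93 and 8.88 with H2O2, against 5.20 and 6.07 untreated, and AT5G54165 reached 7.85 and 7.87 with H2O2, against 4.77 and 5.04 untreated. Both of these kept their calls without each array.

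Single regulators and TIR-domain genes were called as well, all named after their values were seen except the members of lists. STZ, a C2H2 zinc finger repressor of abiotic stress signalling, had 9.65 and 9.60 with H2O2, against 7.10 and 7.35 untreated, a rise of 2.40 ± 0.33. DREB2C, an AP2/ERF factor of heat and drought responses, had 7.01 and 7.02 with H2O2, against 5.22 and 5.08 untreated (1.86 ± 0.22). Both held without each array. ABR1, an AP2/ERF repressor of abscisic acid responses, had 7.38 and 7.52 with H2O2, against 5.26 and 4.70 untreated (2.47 ± 0.48), and AT1G71520, of the same family, had 5.97 and 5.77 with H2O2, against 3.79 and 3.69 untreated (2.13 ± 0.51). Calls of both were lost without single arrays (adjusted p up to 0.284). Further TIR-domain genes, of the type used by plant immune receptors, were AT1G72900 (2.44 ± 0.50), AT1G72920 (2.20 ± 0.39), AT3G04220 (1.69 ± 0.21) and AT2G20142 (1.59 ± 0.28). AT3G04220 stood at 5.75 and 5.53 with H2O2, against 3.84 and 4.06 untreated, and was the 1 of these 4 that kept its call without each array (adjusted p up to 0.250 for the others). Of 72 WRKY factors found by description 7 were measured and 1 was called, WRKY29. It fell by 0.95 on the log2 scale and lost its call without any 1 of the 4 arrays. WRKY6, a factor of senescence, had 10.31 and 10.07 with H2O2, against 8.90 and 8.84 untreated, and was not called (1.33 ± 0.36, adjusted p = 0.0985). Of 10 ubiquitin ligases found by a U-box or RING/U-box description 1 was called, a list that misses the RING-type AT2G20030, which fell. The call was PUB23, a negative regulator of immune signalling named after its value was seen, which had 9.70 and 9.52 with H2O2, against 8.04 and 8.07 untreated (1.55 ± 0.36) and lost its call without any 1 of the 4 arrays.

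Hormone-related lists gave few calls, but most of their loci were not measured. Those measured were 6 of 22 listed abscisic acid and dehydration genes, 2 of 20 jasmonate genes, 2 of 10 type-A response regulators and 8 of 32 auxin-responsive genes. Limma called 0 of 6 abscisic acid and dehydration genes, 3 of them with an unadjusted p under 0.05 (median 0.60). COR15A, a cold-induced chloroplast protein, stood at 11.42 and 11.78 with H2O2, against 10.93 and 10.67 untreated (0.80 ± 0.34, adjusted p = 0.447). The defensins PDF1.2 and PDF1.2b, markers of the jasmonate response, were the 2 measured genes of their list, and both had an unadjusted p under 0.05. PDF1.2 stood at 6.62 and 5.84 with H2O2, against 2.80 and 4.94 untreated, and was not called (2.36 ± 0.64, adjusted p = 0.0926). PDF1.2b had 6.76 and 6.33 with H2O2, against 3.79 and 5.69 untreated (1.80 ± 0.73, adjusted p = 0.411). The untreated arrays of both genes were far from each other. Neither measured type-A response regulator, which are early targets of cytokinin, was called: ARR15 had 2.64 and 2.71 with H2O2, against 2.55 and 3.59 untreated (-0.40 ± 0.35), and RR16 had 2.95 and 2.97 with H2O2, against 2.62 and 3.15 untreated (0.07 ± 0.30). In both genes the groups overlapped. Both were dim in untreated mutants, with means of 3.07 for ARR15 and 2.89 for RR16. Over all genes the untreated level had a median of 4.83 and a lowest value of 1.46. A fall from such levels would be hard to see, so the missing calls say little about one. UGT76C2, which inactivates cytokinins by attaching glucose, had 4.65 and 4.46 with H2O2, against 5.49 and 5.49 untreated, a fall of 0.93 on the log2 scale (adjusted p = 0.0381, limma) that was lost without any 1 of the 4 arrays (adjusted p up to 0.229). Its neighbour UGT76C1 stood at -0.26 ± 0.21 and the type-B regulator RR18 at 0.14 ± 0.29. Over all 16548 genes, 1563 had an unadjusted p under 0.05. Limma called 0 of 8 auxin-responsive genes (2 with an unadjusted p under 0.05) and 0 of 10 glutaredoxins and thioredoxins (1 with an unadjusted p under 0.05). It also called 0 of 9 ATG8 autophagy genes, 0 of 5 histones, 0 of 6 late embryogenesis abundant proteins, 0 of 5 bHLH factors and 0 of 4 pectin-modifying enzymes, with 0 at an unadjusted p under 0.05 in each of these lists. The pectin list, found by description, misses the polygalacturonase-like AT5G14650, which fell.

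The 2 largest falls were in leucine-rich-repeat receptor kinases of subfamily I, membrane proteins with a malectin-like outer domain. AT1G51830 had 3.63 and 3.99 with H2O2, against 7.98 and 8.11 untreated, a fall of 4.23 on the log2 scale (SE 0.32) or 18.8-fold (adjusted p = 5.59e-06, limma). AT1G51840 had 3.62 and 4.26 with H2O2, against 7.55 and 7.99 untreated (-3.83 ± 0.49). AT1G51850 had 3.15 and 3.12 with H2O2, against 5.57 and 6.61 untreated (-2.95 ± 0.54). These loci are neighbours on chromosome 1 and close relatives, so which of them gave the signal of each feature is uncertain. Away from them, AT2G28960 had 3.50 and 4.39 with H2O2, against 6.35 and 6.62 untreated (-2.54 ± 0.29), and AT1G05700 had 3.54 and 3.59 with H2O2, against 5.50 and 6.52 untreated (-2.44 ± 0.29). In each of the 5 genes both H2O2 arrays were below both untreated ones, and 4 kept their calls without each array, AT1G51850 being the exception (adjusted p up to 0.146). The remaining calls, named after their values were seen, were AT2G28990 (-2.22 ± 0.49), AT1G51860 (-2.00 ± 0.36), AT1G07560 (-1.63 ± 0.29) and AT2G28970 (-1.45 ± 0.33), and each was lost without single arrays (adjusted p up to 0.358). In all 9 of 36 measured members fell and 0 rose, and the median of the list was -0.26. The count was 5 without H2O2 replicate 2 and 4 without untreated replicate 2. The uncalled AT5G59680 (-1.37 ± 0.38), AT1G51790 (-1.36 ± 0.42) and AT2G14510 (-0.73 ± 0.29) also had both H2O2 arrays below both untreated ones, as had 20.3% of all genes tested. In all, 27 members were not called.

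**Figure D3:**
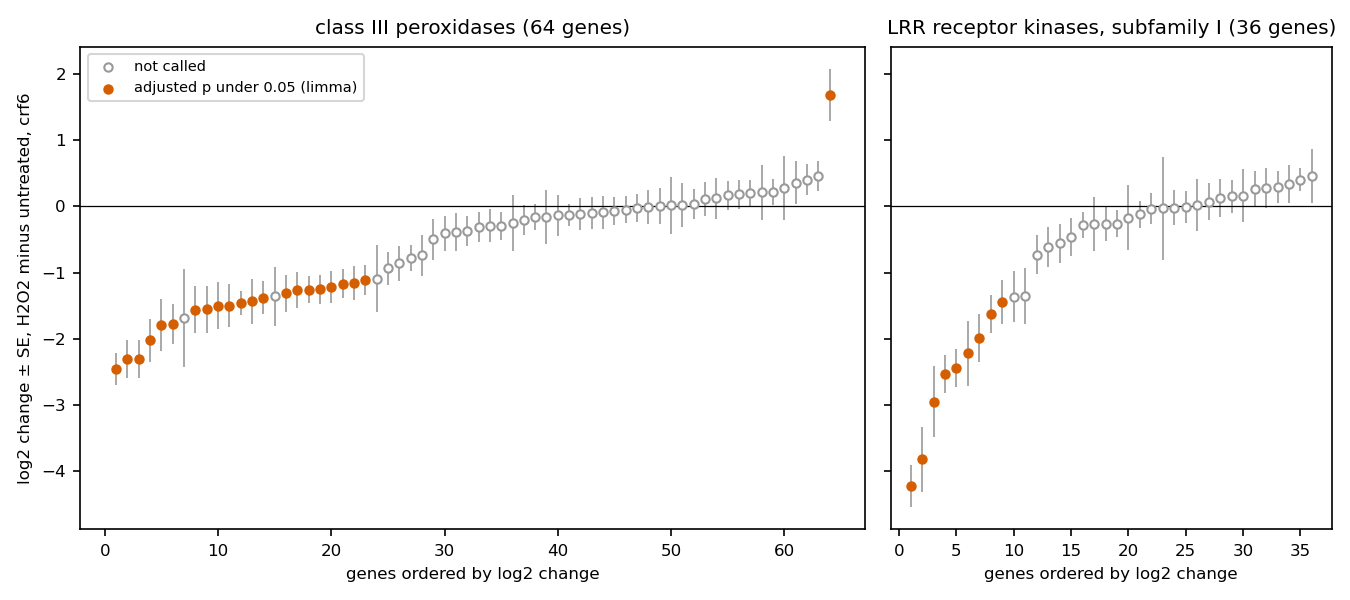
Log2 change with H2O2 in crf6 with its SE (y axis) for 64 class III peroxidases (left) and 36 leucine-rich-repeat receptor kinases of subfamily I (right), each ordered by its change. Filled points passed an adjusted p of 0.05 (limma). The falls form a steep left shoulder in both families while most members lie near 0, and 1 peroxidase, PRXCA, lies above at 1.69.

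Class III peroxidases were read as a whole family, a list added after values of these data had been seen. Of 64 measured members 21 fell and 1 rose, and the median of the family was -0.34. AT2G37130 had 5.57 and 5.39 with H2O2, against 7.89 and 7.98 untreated, a fall of 2.45 on the log2 scale (SE 0.24) or 5.48-fold (adjusted p = 9.02e-05, limma). AT4G30170 had 6.12 and 5.97 with H2O2, against 8.13 and 8.57 untreated (-2.31 ± 0.29). Both genes had tight groups that lay well apart, and both kept their calls without each array. AT5G17820 had 4.63 and 3.95 with H2O2, against 5.95 and 6.69 untreated (-2.03 ± 0.32), lost without H2O2 replicate 2 and without untreated replicate 2 (adjusted p up to 0.0682). AT2G38380, named after its value was seen, had 7.88 and 8.09 with H2O2, against 9.42 and 9.47 untreated (-1.46 ± 0.18), and held without each array. PRXCA, known for its part in the oxidative burst of defence, was the rise, with 7.76 and 7.11 with H2O2, against 5.51 and 5.98 untreated (1.69 ± 0.39), and its call was lost without any 1 of the 4 arrays (adjusted p up to 0.376). The number called in the family was 8 without H2O2 replicate 1, 7 without H2O2 replicate 2, 12 without untreated replicate 1 and 4 without untreated replicate 2. It was 12 with unnamed features tested too. Uncalled members with large changes were AT5G39580 (-1.69 ± 0.74), AT5G19890 (-1.36 ± 0.45) and AT5G64120 (-1.10 ± 0.51). Among the 7 peroxidases found by their description, 1 rose and 2 fell, and 0 were called without any 1 of the 4 arrays.

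Of 5 measured root hair genes 3 fell, and these 3 are peroxidases. AT3G01190 had 4.30 and 4.26 with H2O2, against 6.29 and 6.89 untreated, a fall of 2.31 on the log2 scale (SE 0.29, adjusted p = 0.000553, limma) that held without each array. AT4G26010 had 5.14 and 4.61 with H2O2, against 5.96 and 6.80 untreated (-1.50 ± 0.32). AT1G30870 had 2.09 and 2.42 with H2O2, against 3.14 and 4.24 untreated (-1.43 ± 0.34). In all 3 the groups did not overlap, and the untreated arrays differed from each other by more than the H2O2 arrays did. The median of the 5 genes was -1.43, and only AT3G01190 was called without H2O2 replicate 1, without H2O2 replicate 2, without untreated replicate 2 or with unnamed features tested too, where the others had an adjusted p of up to 0.533. The expansins EXPA7 (-0.86 ± 0.24) and EXPA18 (-0.78 ± 0.31), which loosen the wall of the growing hair, were not called. The mean level of the 5 root hair genes was 3.77 and 3.76 on the H2O2 arrays, against 4.88 and 5.40 on the untreated arrays. That of 4 light-harvesting genes of green tissue was 8.89 and 8.64 with H2O2, against 8.77 and 8.58 untreated, and limma called 0 of these 4 (0 with an unadjusted p under 0.05). In whole seedlings, fewer cells of a type and less RNA per cell cannot be told apart. The part of tissue makeup in the falls of root genes was not tested.

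Other wall and root proteins fell as well, and apart from the genes of the rule these were picked after their values were seen. The extensin-like AT1G26250, a hydroxyproline-rich wall protein, had 4.09 and 4.55 with H2O2, against 6.54 and 6.46 untreated (-2.18 ± 0.29), and held without each array. AT3G28550, of the same kind, had 3.49 and 3.42 with H2O2, against 5.94 and 6.22 untreated (-2.63 ± 0.56), and AT1G23720 had 4.21 and 4.48 with H2O2, against 5.94 and 6.00 untreated (-1.62 ± 0.29). Calls of these 2 were lost without single arrays (adjusted p up to 0.191). AT5G14650, a polygalacturonase-like enzyme of pectin, had 4.99 and 4.85 with H2O2, against 7.35 and 7.72 untreated (-2.61 ± 0.34), a fall that held without each array. GH9C1 (-1.81 ± 0.36) and GH9B13 (-1.96 ± 0.48), endoglucanases of the wall, were called and lost their calls without single arrays. GH9B13 had 6.37 and 8.36 with H2O2, against 9.26 and 9.39 untreated, so its H2O2 arrays were far from each other (adjusted p = 0.0496). Of 34 expansins and xyloglucan enzymes 3 fell and 0 rose, EXPB3 (-1.25 ± 0.30), EXPA4 (-1.11 ± 0.26) and EXPA9 (-0.86 ± 0.18), with a list median of -0.20. Of these 3, 1 was called without untreated replicate 1 and 0 without any of the other 3 arrays. The uncalled EXPA8 stood at -1.43 ± 0.41 and EXPA15 at -0.86 ± 0.35. AT5G44380, a berberine bridge enzyme-like oxidase, had 4.59 and 3.48 with H2O2, against 6.36 and 6.80 untreated (-2.55 ± 0.29), and held without each array.

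Genes of the ER body, a store of beta-glucosidases in the epidermis of Brassicaceae seedlings and roots, also fell in part. This list too was added after values had been seen. BGLU22 had 6.84 and 6.70 with H2O2, against 8.69 and 9.28 untreated (-2.21 ± 0.36). NAI2, needed to form ER bodies, had 9.08 and 8.74 with H2O2, against 10.24 and 10.47 untreated (-1.45 ± 0.24). The jacalin lectin JAL34 had 7.92 and 7.54 with H2O2, against 9.11 and 9.55 untreated (-1.60 ± 0.27). PYK10, the main beta-glucosidase of the root ER body, averaged 11.15 ± 0.12 with H2O2, against 12.08 ± 0.12 untreated (SD, n = 2 each), a change of -0.93 ± 0.22. All 4 had groups that did not overlap, as was so for every gene called in crf6. They were the 4 calls of 11 measured genes, whose median was -0.93. Without H2O2 replicate 2 the count was 1 and without untreated replicate 2 it was 0 (adjusted p up to 0.313). BGLU21 (-1.67 ± 0.45) and JAL31 (-1.04 ± 0.29) were not called, and JAL23 stood apart in sign at 1.03 ± 0.39, also uncalled. Further jacalin-type lectins among the largest falls were AT1G52060, with 4.17 and 3.74 with H2O2, against 6.33 and 7.14 untreated, and AT1G52070, with 2.76 and 2.22 with H2O2, against 4.76 and 5.35 untreated. Both lost their calls without untreated replicate 2 (adjusted p up to 0.283), and AT1G52060 also without each of the other arrays.

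Further families had several members among the falls, and of those described here AT3G20380 and AT3G05950 were named by rule and the others after their values were seen. The TRAF-like AT5G26260, AT5G26280 and AT5G26290 lie close together on chromosome 5, with AT5G26270 between them. AT5G26280 had 7.02 and 6.92 with H2O2, against 8.53 and 9.29 untreated (-1.94 ± 0.26), and held without each array. AT5G26290 (-1.81 ± 0.31) and AT5G26260 (-1.44 ± 0.34) did not (adjusted p up to 0.399). AT3G20380, of the same family, had 4.26 and 4.46 with H2O2, against 6.45 and 7.41 untreated (-2.58 ± 0.48), and lost its call without 3 of the 4 arrays. The germin-like AT3G05950 and AT5G38940 fell by 1.89 and 1.84 on the log2 scale, and AT5G38940 lost its call without any 1 of the 4 arrays. OSM34, an osmotin-like defence protein, had 8.17 and 7.83 with H2O2, against 10.01 and 10.18 untreated (-2.09 ± 0.28), and held without each array. The subtilase SBT4.12 (-2.08 ± 0.36) and the metallothionein MT1C (-1.86 ± 0.30) were lost without untreated replicate 2, and SBT4.12 also without H2O2 replicate 2 (adjusted p up to 0.0996).

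**Figure D4:**
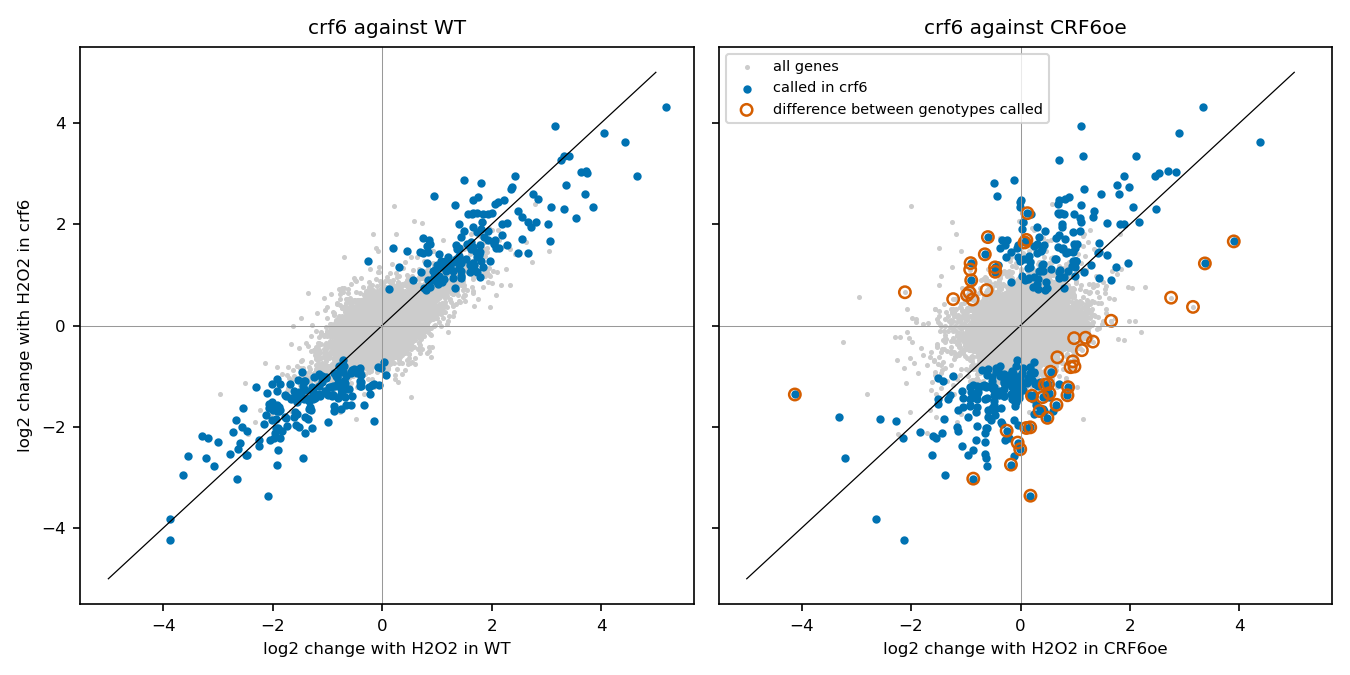
Log2 change with H2O2 in crf6 (y axis) against that in WT (left) and in CRF6oe (right), 1 point per gene, with the line of equal change. Blue points are the 323 genes called in crf6 and open circles the genes whose difference between genotypes was called, 0 on the left and 49 on the right. The blue points follow the line on the left and spread towards no change in CRF6oe on the right. They were chosen by their calls in crf6, so their position in the other lines is a description.

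Whether the response depended on the genotype was asked by the difference of the H2O2 changes between crf6 and each other line. Against WT, limma called 0 of 16548 genes (0%), with 480 at an unadjusted p under 0.05, so none of the differences below passed. The SE of this difference had a median of 0.324, against 0.229 for the change in crf6. Differences of modest size could therefore be missed, and 0 calls do not show that the 2 lines respond alike. The 143 rises of crf6 had a median of 1.57 in crf6, against 1.65 in WT, and the 180 falls a median of -1.39 in crf6, against -1.30 in WT. These genes were chosen by their calls in crf6, so their medians in the other lines are a description. Of the 323 genes, 234 were called in the same direction in WT, 0 in the opposite direction, and 89 were not called in WT. In WT 475 genes were called in all (2.87%, with 1.5% higher and 1.37% lower). The germin-like AT3G05950 had the lowest difference by its test statistic, -1.75 ± 0.36 (unadjusted p = 0.000227). In crf6 it had 3.77 and 3.90 with H2O2, against 5.54 and 5.91 untreated, and in WT 4.72 and 4.22 with H2O2, against 4.33 and 4.90 untreated. The MATE transporter AT2G34360 had the highest, 1.54 ± 0.34 (unadjusted p = 0.000438). It had 5.83 and 5.12 in crf6 with H2O2, against 4.23 and 4.15 untreated, while in WT it had 4.49 and 4.66 with H2O2, against 4.93 and 4.73 untreated. AT5G22140 rose in both, by 2.34 ± 0.25 in crf6 and by 3.85 in WT (difference -1.50 ± 0.36). In the heat-related lists 8 of 10 small heat shock proteins and 9 of 10 helpers had a lower change in crf6 than in WT, with medians of 1.55 in crf6, against 2.78 in WT, and of 1.31 in crf6, against 1.81 in WT. A lower change in crf6 also appeared in 10 of 11 detoxification genes (medians 1.44 in crf6, against 2.67 in WT), and none of these differences was called. The same held for 6 of 7 mitochondrial dysfunction genes and 9 of 11 ER body genes. It held for 1 of 4 hallmark genes, 12 of 36 receptor kinases of subfamily I and 29 of 64 class III peroxidases. Falls called in WT were 9 of these 36 receptor kinases and 19 of the 64 peroxidases, against 9 and 21 in crf6. Over all genes the median of the difference was 0.02, so lower changes in crf6 were no more common than higher ones.

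Against CRF6oe, 49 genes differed in their change with H2O2 (0.296%), 17 with a higher change in crf6 (0.103%) and 32 with a lower one (0.193%), and 1949 had an unadjusted p under 0.05. The 4 crf6 arrays correlated with CRF6oe arrays at r = 0.919 to 0.940 and with WT arrays at 0.956 to 0.989, so a difference between the 2 lines cannot be told apart from one between their sets of arrays. AT4G32950, a protein phosphatase of type 2C, had 4.08 and 3.76 in crf6 with H2O2, against 7.52 and 7.05 untreated, while in CRF6oe it had 4.74 and 4.94 with H2O2, against 4.32 and 5.00 untreated. The difference of the changes was -3.54 ± 0.40 (adjusted p = 0.00141, limma). AT2G20030, a RING-type ubiquitin ligase, had 3.23 and 2.99 in crf6 with H2O2, against 6.13 and 6.14 untreated, and in CRF6oe 3.89 and 3.71 with H2O2, against 4.65 and 4.68 untreated (difference -2.16 ± 0.24). AT1G29020 had 3.45 and 3.43 in crf6 with H2O2, against 5.39 and 5.54 untreated, and in CRF6oe 3.96 and 4.06 with H2O2, against 3.80 and 4.01 untreated (difference -2.13 ± 0.23). In each of these 3 falls the untreated level was lower in CRF6oe than in crf6. The MATE transporter AT5G52450 had a higher change in crf6, with 6.66 and 6.62 in crf6 with H2O2, against 5.20 and 5.61 untreated, and in CRF6oe 5.21 and 5.43 with H2O2, against 6.11 and 6.36 untreated (difference 2.14 ± 0.24). Without each of the 8 arrays compared in turn, these 4 genes and no others stayed called. The count was 4 without H2O2 replicate 1, 10 without H2O2 replicate 2 and 9 without either untreated replicate of crf6, and 5 without H2O2 replicate 1 and 7 without untreated replicate 1 of CRF6oe. A fit of the 8 arrays alone gave 11 calls, in which AT5G52450 was lost, against 29 with each array centred on its median and 4 with unnamed features tested too.

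Of the 49 genes, 31 were themselves called in crf6, 11 rises and 20 falls. Among those with a lower change in crf6 were 3 small heat shock proteins. AT5G37670 had 5.09 and 4.42 in crf6 with H2O2, against 4.15 and 4.62 untreated, where the groups overlapped, and in CRF6oe 6.85 and 6.80 with H2O2, against 3.50 and 3.84 untreated (difference -2.78 ± 0.54, adjusted p = 0.0477, limma). AT1G54050 (-2.23 ± 0.42) and AT1G52560 (-2.14 ± 0.40) differed in the same direction, so 3 of the 10 members were called here. The other members were not called and went both ways. AT2G29500 (0.98 ± 0.41), AT1G07400 (0.49 ± 0.34) and AT1G59860 (0.02 ± 0.31) had positive differences, and AT1G53540 (-0.74 ± 0.50) a negative one. The median change of the list was 1.55 in crf6, against 3.00 in CRF6oe. UGT72E2 (-2.57 ± 0.47), the receptor kinase AT1G05700 (-2.44 ± 0.41) and the root hair peroxidase AT3G01190 (-2.26 ± 0.41) fell in crf6 and stood at -0.17, about 0 and -0.05 in CRF6oe. The untreated mean of UGT72E2 was already low in CRF6oe, at 3.80 against 6.59 in crf6. That of AT1G05700 was 4.05 in CRF6oe, against 6.01 in crf6. The extensin-like AT3G54580 fell in both lines, by 1.36 in crf6 and by 4.12 in CRF6oe (difference 2.76 ± 0.44). Its untreated mean was 4.13 in crf6 and 7.53 in CRF6oe, and its mean with H2O2 was low in both, at 2.77 and 3.41. UGT87A2 (2.34 ± 0.41), AT2G41410 (2.06 ± 0.35) and AT3G51660 (1.79 ± 0.30) rose in crf6 and stood at -0.60, -0.65 and -0.90 in CRF6oe. In CRF6oe, UGT87A2 was high before treatment, at 10.32 and 10.21 untreated. In crf6 it had 10.18 and 10.15 with H2O2, against 8.06 and 8.77 untreated. All of the called differences in this paragraph lost their calls without 6 or more of the 8 arrays in turn (adjusted p up to 0.188). In CRF6oe itself 433 genes were called (2.62%, with 1.41% higher and 1.21% lower). Over the 143 rises of crf6 the median change was 1.57 in crf6, against 0.71 in CRF6oe, and over the 180 falls -1.39 in crf6, against -0.32 in CRF6oe.

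**Figure D5:**
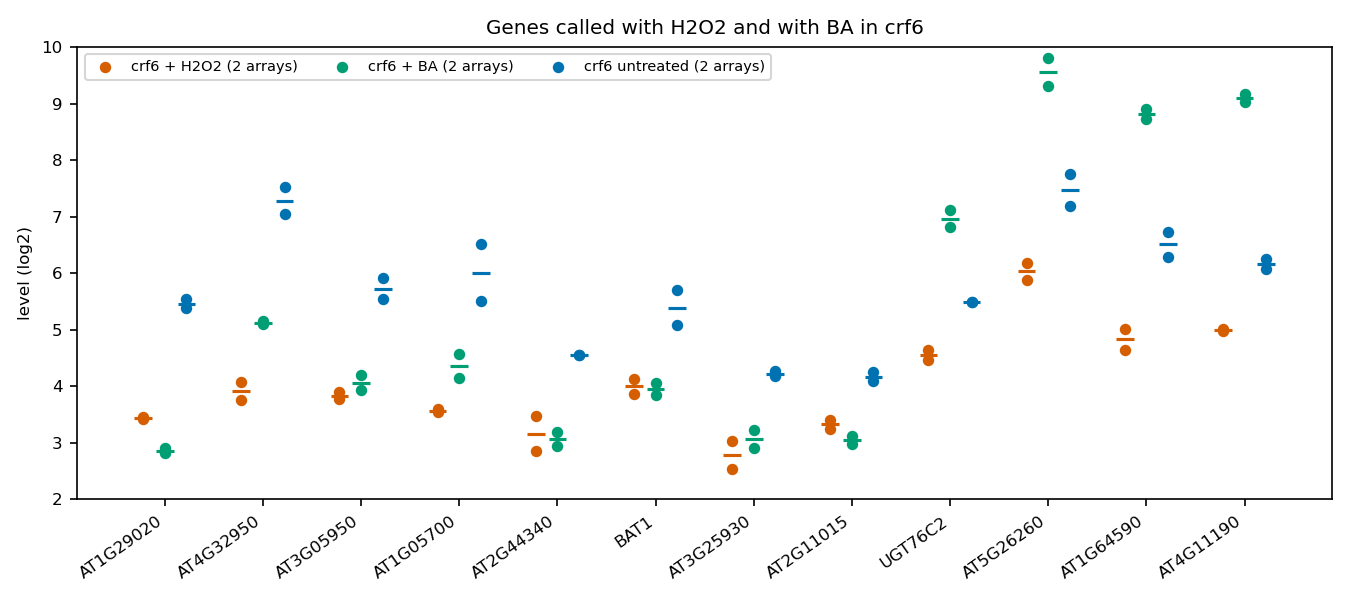
Levels (log2, y axis) in crf6 of the 12 genes called with H2O2 and also with BA, with 2 points per group and a bar at the mean, in the order H2O2, BA and untreated. In the first 8 genes both treatments lie below untreated; in the last 4, BA lies above untreated and H2O2 below.

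The mutant was also treated with BA, and that comparison uses the same untreated arrays. With BA 29 genes rose and 10 fell in crf6 (0.236%, with 0.175% higher and 0.0604% lower). Of the 143 genes that rose with H2O2 limma called 0 with BA, where 1049 of all genes had an unadjusted p under 0.05, and of the 180 that fell with H2O2 it called 12. Of these, 8 fell with BA too. AT1G29020 had 3.45 and 3.43 with H2O2 and 2.81 and 2.90 with BA, against 5.39 and 5.54 untreated. AT4G32950 had 4.08 and 3.76 with H2O2 and 5.15 and 5.10 with BA, against 7.52 and 7.05 untreated. BAT1, a brassinosteroid-inactivating acyltransferase, had 4.13 and 3.87 with H2O2 and 3.84 and 4.05 with BA, against 5.08 and 5.69 untreated. In all 3 the untreated arrays were highest. The other 5 were AT1G05700, AT2G11015, AT2G44340, AT3G05950 and AT3G25930. The 4 genes that fell with H2O2 and rose with BA were UGT76C2, AT1G64590, AT4G11190 and AT5G26260. AT4G11190, a dirigent-like protein, had 5.02 and 4.98 with H2O2 and 9.02 and 9.18 with BA, against 6.25 and 6.08 untreated. UGT76C2 had 4.65 and 4.46 with H2O2 and 6.81 and 7.11 with BA, against 5.49 and 5.49 untreated. The type-A regulators ARR15 and RR16, not called with H2O2, rose with BA to 7.21 and 6.81 and to 6.02 and 5.30. The 8 shared falls are 4.44% of the H2O2 falls and 80.0% of the BA falls, and an untreated array that reads high or low moves both comparisons together. Of the 12 genes, the H2O2 calls of AT4G32950, AT1G29020, AT1G05700, AT3G05950 and AT3G25930 held without each array, and the others were lost without single arrays (adjusted p up to 0.399).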

How the data were processed

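The 18 arrays have 1 colour and took biotin-labelled cRNA, per the labels' protocols. The log2 values used were deposited by the authors as 1 value per feature and array; the sources used here give neither background correction nor normalization, and the log2 scale was read from the values. Gene names came from the probe table of the platform and a RefSeq table for TAIR10.1; 16722 features paired with exactly 1 gene were tested. Limma 3.58.1 in R 4.3.3 fitted 9 group means to 18 arrays (9 residual and 5.63 prior degrees of freedom), with two-sided contrasts and Benjamini-Hochberg adjustment over the 16722 features. The number of arrays limits the precision.

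The comparison, the lists and the tests were chosen with earlier results of these data known. The rule for naming genes took the 15 largest rises and the 15 largest falls among called genes whose arrays did not overlap, up to 4 called and 3 uncalled members of each list of at least 4 measured genes, the measured cytokinin genes, and the 5 lowest and 5 highest genes by t in each difference between genotypes. Genes and lists said to be added or named after their values were seen lie outside it. Most lists held more loci than were measured. Replicate numbers were not taken to pair the samples: deviations of same-numbered arrays correlated at 0.04 to 0.06 in crf6 and -0.20 to 0.17 in CRF6oe, although at 0.22 to 0.33 in WT. No sequences are printed. Alternatives were fewer arrays in the fit, quantile normalization, median centring, unnamed features, a filter on dim features, another prior, the mean of a gene's features, a replicate block and leaving out arrays.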

Additional observations from a re-analysis of the deposited data

Results flagged for a closer look

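The change with H2O2 in crf6 differed from that in CRF6oe, by limma's test of the difference itself, for 20 of the genes named. Lower changes in crf6 were found for AT4G32950 (-3.54), AT5G37670 (-2.78), UGT72E2 (-2.57), AT1G05700 (-2.44), AT3G01190 (-2.26), AT5G54040 (-2.23), AT1G54050 (-2.23), sks16 (-2.22), AT5G05220 (-2.20), AT2G20030 (-2.16), AT1G52560 (-2.14), AT1G29020 (-2.13) and AT4G11190 (-1.61), all in log2 units. Higher changes in crf6 were found for AT3G54580 (2.76), UGT87A2 (2.34), AT5G52450 (2.14), AT2G41410 (2.06), AT3G51660 (1.79), AT3G04220 (1.58) and AT1G17160 (1.39). AT5G05220 had a change of 0.55 in crf6 against 2.75 in CRF6oe, and AT5G54040 a change of -1.38 in crf6 against 0.86 in CRF6oe. Calls of AT4G32950, AT2G20030, AT1G29020 and AT5G52450 held without each of the 8 arrays compared. The others were lost without at least 3 of them (adjusted p up to 0.195). CRF6oe arrays correlated at 0.919 to 0.940 with the crf6 arrays, so line and array set cannot be told apart.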

How the results depend on the processing

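The 323 calls in crf6 became 280 with only the 4 arrays compared in the fit (51.8% of them rises, against 44.3%), 203 with unnamed features tested too, and 299 to 325 under the other settings with all 4 crf6 arrays and no block. With the replicate block the count was 393, and the calls of AT1G52560 (adjusted p = 0.0708, limma), AT1G71520 (0.0504), AT2G11015 (0.0668) and AT3G51660 (0.0834) were lost; the numbers share no stated origin. Leaving out single crf6 arrays gave 97 to 161. The difference from CRF6oe was called for 11 genes with only the arrays compared in the fit, 29 with each array centred on its median, 4 with unnamed features tested too, 44 with the replicate block, where AT1G52560 (adjusted p = 0.0716), AT2G41410 (0.0501) and AT3G51660 (0.0538) were lost, and 4 to 68 without single arrays. Leaving out CRF6oe and WT arrays was added after seeing the data. The difference from WT had 0 calls in every setting run (limma), with 293 to 826 genes at an unadjusted p under 0.05. Of 104 named genes called in crf6, 38 kept the call in every setting run and none changed sign. Signs turned without single arrays for 9 uncalled genes, whose ranges were -0.196 to 0.319 for SRX, -0.164 to 1.09 for AT5G17000, -0.109 to 0.340 for Hop1, -0.375 to 0.118 for APG8A, -0.262 to 0.0178 for LHB1B2, -0.194 to 0.335 for RR16, -0.919 to 0.127 for ARR15, -0.007 to 0.535 for AT2G04050 and -0.0429 to 0.249 for LHCB4.1. In the fit without CRF6oe arrays the difference from CRF6oe could not be computed. With 2 arrays in each group, a lone array was assumed to vary like the other groups. The cause of these shifts was not tested.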
